A study of Mus musculus with 2 samples.

Results

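The fragments described here are stretches of the mouse genome, each lying apart from the other listed fragments. They gave strong methylation-dependent signal when averaged over the 2 hypothalamic nuclei compared. There were 1686 of them among 23738 listed fragments. They were chosen by position and by measured signal. A fragment had to be autosomal, with no other listed fragment within 20000 bp of either end and with at least 2 array probes lying wholly inside it, which left 6787 isolated fragments. Of these, the 1686 were selected on a mean log2 processed signal of 12 or more, averaged over their probes, both nuclei and both arrays. They are called isolated bright fragments below, and 24.8% of isolated fragments met the signal minimum. The same minimum was met by 3821 of 16014 non-isolated autosomal fragments (23.9%). The remaining listed fragments were 494 on chromosomes X and Y and 443 autosomal ones with fewer than 2 probes, of which 145 were isolated.

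The study set DNA of the paraventricular nucleus (PVH) against DNA of a second nucleus, called the arcuate nucleus (ARH) here, by methylation-specific amplification microarray. Each pool was made of 7 dissected pieces of one nucleus taken on postnatal day 10 from C57BL/6 mice, males and females together, and the labels name no treatment or genetic change. The labels conflict on the second nucleus: sample names and design text give ARH, while the series title and a tissue tag give the ventromedial nucleus. There were 2 arrays, described as biological replicates with the dyes exchanged, so that the PVH product was red (Cy5) on replicate 1 and green (Cy3) on replicate 2. Pooling means that the spread between single animals, or between the sexes, cannot be seen.

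Most CpG sites of mammalian DNA carry a methyl group on their cytosine, whereas CpG islands, the CpG-dense stretches at many promoters, are mostly free of it. The assay reads this mark with a pair of restriction enzymes that recognise the same sequence. SmaI makes a blunt cut, and only at sites whose CpG lacks the methyl group, and XmaI then cuts the sites that methylation protected and leaves overhanging ends. Adaptors join the overhangs, and PCR amplifies a fragment when both of its ends were methylated. PVH neurons release hormones and adjust feeding and stress responses, and neurons of the arcuate nucleus sense circulating signals of energy balance and project to the PVH. Signal from a fragment is read as methylation at its 2 end sites. It is not a methylation level, since PCR and hybridization also set it, and methylation between the end sites is not read. Position relative to genes and CpG islands, and the sequences themselves, were not analysed here.

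The isolated bright fragments had a median log2 signal of 13.41 over the 4 channels, a processed signal of 10859. They ran between 12.0002 and 16.19. Of the 1686, 583 lay between 12 and 13, 608 between 13 and 14, 420 between 14 and 15, 74 between 15 and 16, and 1 above 16. Median processed signals in the single channels were 11872 and 10260 in PVH (replicates 1 and 2), and 10289 and 11220 in ARH. The isolated fragments below the minimum had median log2 signals of 8.38 and 8.71 in PVH and 8.47 and 8.62 in ARH. Across the 1196 negative control spots of each array, the brightest reached 1270 and 796 in PVH and 1181 and 969 in ARH, below the dimmest isolated bright fragment in every channel. That dimmest value was 2577 and 2392 in PVH and 1868 and 3003 in ARH. These levels chose the fragments and are given as a description.

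**Figure D1:**
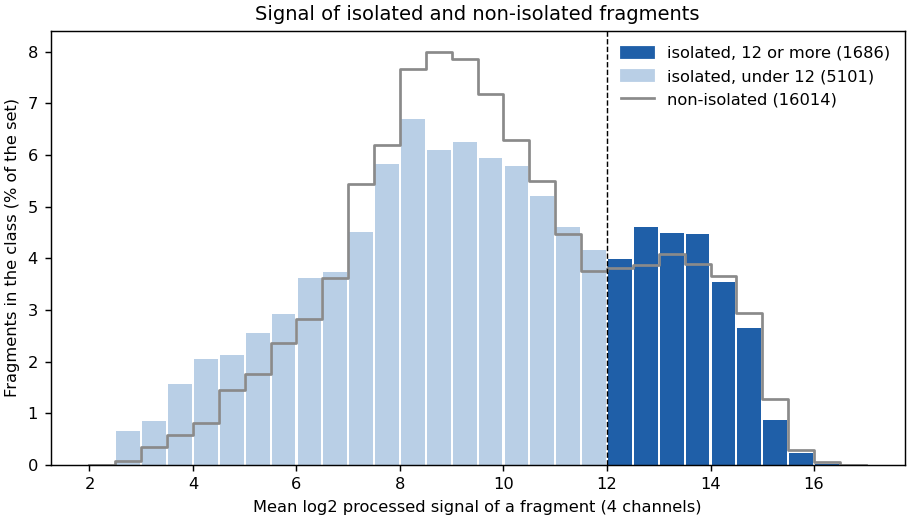
Distribution of the mean log2 processed signal over 4 channels (horizontal axis, steps of 0.5) as a percent of each set (vertical axis). Bars are the isolated fragments, dark at the minimum of 12 or more (1686) and light below it (5101), and the grey line is the 16014 non-isolated fragments. Both sets have a main hump below 10 and a shoulder between 12 and 15, and the dashed minimum falls near the low point between them, with no gap in the signal there (282 isolated fragments in the step below it and 271 in the step above).

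No gap separated the fragments at the minimum. The 3 just inside it were chr2:144397376-144397649 (274 bp), chr5:73977122-73977396 (275 bp) and chr11:36773122-36774263 (1142 bp), with log2 signals of 12.0002, 12.0021 and 12.0043. Just outside were chr3:83680968-83681985 (1018 bp), chr11:6099531-6099972 (442 bp) and chr16:29910020-29911382 (1363 bp), at 11.9985, 11.9942 and 11.9933. All coordinates are on mouse build mm8. The first of those outside had a processed signal of 3581 and 3603 in PVH and 4320 and 5030 in ARH. The first inside had 3608 and 5169 in PVH and 3239 and 4662 in ARH, so single channels of these fragments lay on both sides of the minimum.

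Brightness was shared by the 2 nuclei for most of the fragments. All 4 channels were at 12 or more in 1567 of 1686 (92.9%), and 80 more had 3 such channels. By the mean of both arrays, 1635 (97.0%) were at the minimum in both nuclei. Another 20 were at it in PVH only and 31 in ARH only. Non-isolated bright fragments gave a like share, 3704 of 3821 (96.9%).

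Since the rule used every channel, brightness was also read on the array or nucleus that had not been used for the choice. Of 1638 isolated fragments chosen on replicate 1 alone, 1630 (99.5%, exact binomial 95% interval 99.0 to 99.8) were at 12 or more on replicate 2. Of the 5149 not chosen, 120 (2.33%) were. The other way round, 1630 of 1750 fragments chosen on replicate 2 (93.1%, interval 91.9 to 94.3) were at the minimum on replicate 1. Of 1673 chosen on PVH, 1635 (97.7%, interval 96.9 to 98.4) reached the minimum in ARH. Of 1713 chosen on ARH, 1635 (95.4%, interval 94.3 to 96.4) reached it in PVH. PVH and ARH signals of the same array share a hybridization, and probes are the same throughout. Setting PVH of replicate 1 against ARH of replicate 2, which share neither array nor nucleus and were read in the same dye, 1611 of 1629 (98.9%) carried over. These intervals cover counting over fragments only.

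The brightest isolated fragment was chr13:65761220-65761627, of 408 bp and with 4 probes, at a mean log2 signal of 16.19. Its processed signal was 130076 and 44118 in PVH, and 61263 and 87947 in ARH. On each array the nucleus labelled with Cy5 was the higher, and the nuclei overlap. The next brightest were chr13:67263151-67263887 (737 bp, log2 signal 15.94), chr7:62605064-62605949 (886 bp, 15.87), chr13:93854686-93855366 (681 bp, 15.86) and chr3:53566452-53567038 (587 bp, 15.85). Of the 10 brightest fragments, 9 were between 459 and 886 bp long, and chr13:65761220-65761627 was shorter. None of the 10 passed the test of PVH against ARH given below. The tenth, chr1:192076314-192076888, had 58959 and 32893 in PVH against 61579 and 63034 in ARH, a mean log2 ratio of -0.51 ± 0.62 (SD, n = 2 arrays).

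Isolated bright fragments were of middle length, a property the rule did not use. Their median was 700 bp (95% interval of the median over fragments 678 to 718, interquartile range 497 to 902). The median was 1132 bp for isolated fragments below the minimum (interval 1105 to 1162), and 700 bp for non-isolated bright fragments (interval 687 to 717). Lengths of 500 bp up to but not including 1000 bp took 58.4% of isolated bright fragments and 18.4% of isolated fragments below the minimum. Below, a length class includes its lower limit and not its upper one, apart from the classes of 100 bp. Read by length, 984 of 1925 isolated fragments of 500 to 1000 bp were bright (51.1%, exact 95% interval 48.9 to 53.4). The share was 24.6% at 200 to 500 bp, 16.1% at 1000 to 1500 bp, and 0.610% at 1500 to 2000 bp (9 of 1475). In steps of 100 bp it was highest at 700 to 799 bp, with 54.7%. At 200 to 299 bp it was 6.97%, and of the 287, 302 and 291 isolated fragments in the 3 steps at 1700 bp and above none was bright. PCR yield falls with length, so methylation at the ends and amplification cannot be told apart in the shares of long fragments. Isolated fragments whose probes were all 45 bases long had a median length of 342 bp. What set the lower share of short fragments was not tested.

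**Figure D2:**
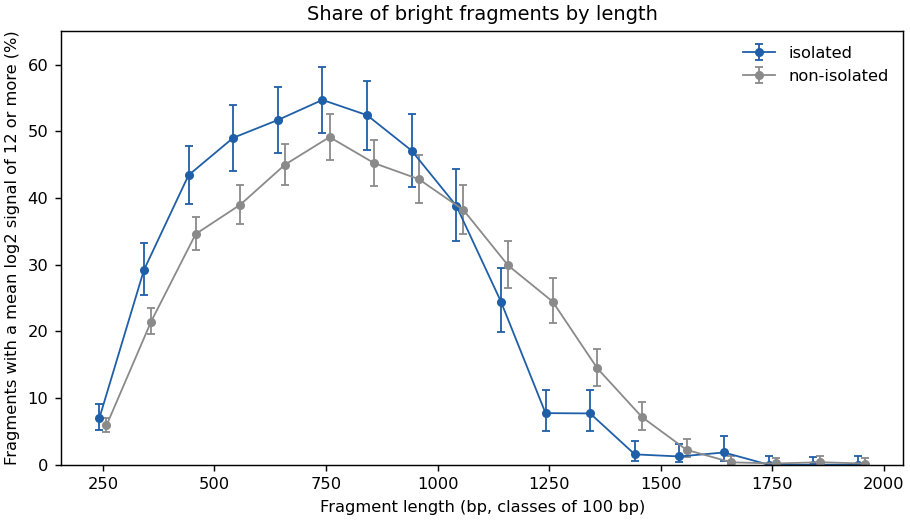
Share of fragments with a mean log2 signal of 12 or more (vertical axis, percent) by fragment length in classes of 100 bp (horizontal axis), for isolated (blue) and non-isolated fragments (grey), with exact binomial 95% intervals. Both curves are highest at 700 to 799 bp, 54.7% for isolated and 49.1% for non-isolated fragments. They cross between the classes of 1000 to 1099 bp and 1100 to 1199 bp, and at 1200 to 1299 bp isolated fragments stand at 7.74%, against 24.5%.

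The length curve of isolated fragments differed from that of non-isolated ones. At 500 to 1000 bp, 51.1% of isolated fragments were bright, against 44.0% of non-isolated ones (interval 42.6 to 45.5). At 200 to 500 bp the shares were 24.6% (interval 22.6 to 26.7) and 18.8% (17.8 to 19.9). At 1000 to 1500 bp the order turned, with 16.1% (14.3 to 17.96) of isolated and 23.2% (21.8 to 24.7) of non-isolated fragments bright. In each of these classes the intervals did not overlap, whereas over all lengths together they did (23.8 to 25.9 for isolated and 23.2 to 24.5 for non-isolated fragments). The intervals cover counting over fragments only, on the same 2 arrays. Of the non-isolated fragments, 9303 lay 1 bp from another listed one, so their counts are not independent. Above 1500 bp both were under 1%.

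The ends of the length range show how far this goes. The longest isolated bright fragment was chr14:18285685-18287382, of 1698 bp, with 9807 and 6353 in PVH and 8522 and 7325 in ARH. Next came chr14:6192940-6194636 (1697 bp), with 11367 and 6823 in PVH and 8752 and 8041 in ARH. PVH and ARH overlapped in both. Their probes had SDs of 1.19 and 1.42 on the log2 scale, while in the third longest, chr10:74368397-74370054 (1658 bp), the SD was 0.67. The shortest was chr5:9267070-9267272, of 203 bp, with 6689 and 10932 in PVH and 9915 and 7965 in ARH.

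Distance to the next listed fragment also went with brightness among isolated fragments. Isolated bright fragments lay a median of 49511 bp away from the nearest listed fragment, against 59655 bp for the isolated fragments below the minimum. The bright share was 28.2% (exact 95% interval 26.6 to 29.9) at 20 to 50 kb, 22.5% (20.6 to 24.5) at 50 to 100 kb, 22.7% at 100 to 200 kb and 21.1% at 200 kb to 1 Mb. Beyond 1 Mb it was 14.1%, or 9 of 64 (6.64 to 25.02). With length held at 500 to 1000 bp, the share was 57.3% (53.96 to 60.7) at 20 to 50 kb and 46.3% (42.8 to 49.8) at 50 to 200 kb. The remotest isolated bright fragment, chr2:97479674-97481231, was 1558 bp long and 2360564 bp from any other listed fragment. It had 7854 and 9750 in PVH and 9347 and 9140 in ARH. Another, chr15:43697086-43697921 (836 bp), lay 1995253 bp away, with 23141 and 16709 in PVH and 19417 and 19422 in ARH.

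Among non-isolated fragments of the 500 to 1000 bp class the share rose with distance. It was 35.8% (34.1 to 37.6) for fragments within 1000 bp of another, 56.2% at 1 to 5 kb and 62.0% at 5 to 20 kb. Isolated fragments of this class at 20 to 50 kb (57.3%) therefore lay between the first and the last of these values. Their intervals overlap that of non-isolated fragments at 5 to 20 kb (59.0 to 64.8). Touching fragments share a restriction site, whereas isolated ones share none with another listed fragment.

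Brightness of one isolated fragment said little about the next along the chromosome. Read from both sides of 6768 pairs of neighbours, 28.2% of isolated fragments next to a bright one were bright. The share was 23.7% next to a dimmer one (r = 0.08 between the log2 signals of a pair, as a description). Isolated bright fragments lay on all 19 autosomes, between 50 on chromosome 19 and 126 on chromosome 7. Their share of isolated fragments ran between 20.4% on chromosome 17 (exact 95% interval 15.9 to 25.6) and 29.2% on chromosome 8 (24.6 to 34.1), and these intervals overlap.

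The array carries up to 4 probes per fragment, of 45 to 60 bases. The isolated bright fragments held 6316 probes: 1337 fragments had 4, 270 had 3 and 79 had 2, in shares close to those of the isolated fragments below the minimum. Within a fragment the probes differed by a median SD of 0.64 on the log2 scale, which is 1.55-fold. The isolated fragments below the minimum had a median SD of 0.93 and non-isolated bright ones 0.67. In 1260 of the 1686 (74.7%) every probe was at 12 or more. In 426 at least 1 probe was under 12, and in 1 fragment a probe was under 10. The widest spread was in chr12:24557429-24557675, a fragment of 247 bp with 3 probes and an SD of 2.45, whose processed signal was 5269 and 4583 in PVH and 4755 and 4431 in ARH. Probes within 50 bp of a fragment's end read 0.13 below the fragment's mean log2 signal (median of 925 probes), and those 150 to 200 bp in read 0.08 above it.

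Probe length went with brightness as well. Among isolated fragments of 500 to 1000 bp, 7 of 168 whose probes were all 45 bases long were bright (4.17%, exact 95% interval 1.69 to 8.40). The share was 28.9% at mean probe lengths above 45 and up to 48 bases, 49.5% in the next class, 66.4% at 51 to 54 bases and 46.2% at 60 bases. Non-isolated fragments of the same lengths gave 14.3%, 37.4%, 48.8%, 56.7% and 39.8% in those classes. Only 34 isolated bright fragments (2.02%) had all probes at 45 bases, against 808 of those below the minimum (15.8%). How far probe length, base composition or methylation set these shares was not tested.

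**Figure D3:**
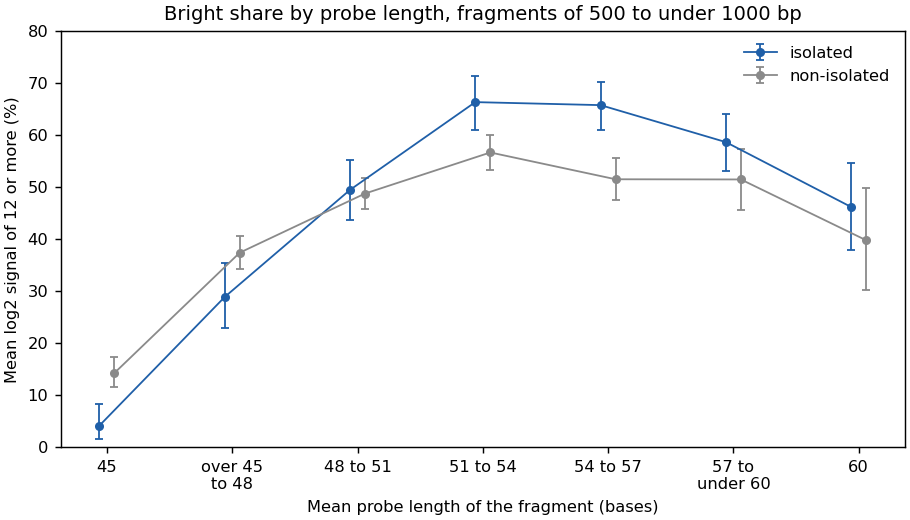
Share of fragments of 500 to 1000 bp with a mean log2 signal of 12 or more (vertical axis, percent) by the mean length of their probes (horizontal axis, bases), for isolated (blue) and non-isolated fragments (grey), with exact binomial 95% intervals. Isolated fragments run between 4.17% at 45 bases and 66.4% at 51 to 54 bases.

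PVH and ARH were then compared within the isolated bright fragments, by the log2 ratio of PVH over ARH on each array. The rule used the average of the channels and not their difference. Most fragments differed little between the nuclei. Of 1685 that could be tested, 1395 (82.8%) differed by less than 1.5-fold on both arrays, against 81.3% of all 22350 fragments tested. Their median log2 ratio was 0.22 on replicate 1 and -0.18 on replicate 2, and 0.02 over both arrays, while the medians of all tested fragments were -0.02, -0.01 and 0.01. The nucleus carrying Cy5 was thus the higher on each array: 1266 fragments had more PVH signal on replicate 1 and 339 on replicate 2. The shift went with brightness. In the 422 dimmest the medians were -0.02 on replicate 1 and -0.07 on replicate 2, and in the 422 brightest they were 0.42 and -0.33. Over all 1685, loess normalization within each array left medians of 0.04 and -0.01. Both arrays of a dye swap weigh equally in the mean ratio, so that a dye shift of equal size on each cancels there.

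Differences between PVH and ARH were tested across all 22350 fragments in 1 fit with limma (Benjamini-Hochberg adjusted p under 0.05). Of the isolated bright fragments, 40 of 1685 passed (2.37%), beside 1.39% of all fragments tested. PVH was higher in 19, where the background was 0.447%, and lower in 21, where it was 0.944%. The isolated fragments below the minimum gave 61 of 4665 (1.31%), and non-isolated bright fragments 70 of 3820 (1.83%). The 40 moved the same way on both arrays, and 36 did so by 1.5-fold or more on each. Passing required a large mean ratio, which by itself favours 1 sign on both arrays. Over all tested isolated bright fragments the ratios of the 2 arrays correlated at r = 0.39 (Spearman 0.06). Over all fragments tested these were 0.09 and -0.03. Loess on the processed signals gave r = 0.67 for isolated bright fragments and 0.26 for all. Median changes were 1.94-fold for those higher in PVH and 1.92-fold for those lower in PVH. By size alone, 23 isolated bright fragments were at least 1.5-fold higher in PVH on both arrays (background 0.689%), 30 at least 1.5-fold lower (1.61%), and 8 passed that size in opposite directions (0.953%). On average over the arrays 7 were at least 2-fold higher (background 0.210%) and 9 at least 2-fold lower (0.613%). At an unadjusted p under 0.05 there were 126 (7.48%), beside 6.18% of all.

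With 2 arrays the fit gave every fragment the same standard error of 0.26, so passing amounted to a mean log2 ratio beyond about 0.87 in size, and its small p-values are optimistic. The count depended on the processing: background correction of the spot medians with loess gave 97 (beside 3.02% of all fragments), the same without loess gave 4 (0.166%), and removing the trend of the ratio with fragment length gave 6 (0.356% of isolated bright fragments, beside 0.367% of all), 5 of them lower in PVH. Of the 20 fragments described below for their ratio, 16 lost the call under background correction of the spot medians without loess. With the length trend removed 14 lost it, and none reversed in either setting. The reported fit itself used no loess, and adding loess to the processed signals kept all 20. The calls at chr6:33964954-33965368, chr5:146901979-146902712, chr10:82247968-82248592 and chr1:121083190-121084512 held in both settings, with limma adjusted p of at most 0.042.

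By length, the isolated bright fragments tested numbered 428 at 200 to 500 bp, 984 at 500 to 1000 bp and 273 at 1000 bp or more. Of these, 7, 28 and 5 passed, and shares by length over all fragments tested are not given here. The 19 fragments higher in PVH were all under 1000 bp, as were most of those tested, with 4 at 200 to 500 bp and 15 at 500 to 1000 bp. Among the 21 lower in PVH, 3 were of 200 to 500 bp, 13 of 500 to 1000 bp and 5 of 1000 bp or more. The median ratio of all isolated bright fragments ran the same way, at 0.05 for 200 to 500 bp, 0.03 for 500 to 1000 bp and -0.09 for 1000 bp and longer. The 40 lay on 18 chromosomes. In 27 of them both nuclei were at the signal minimum, in 10 PVH was under it and in 3 ARH was under it.

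**Figure D4:**
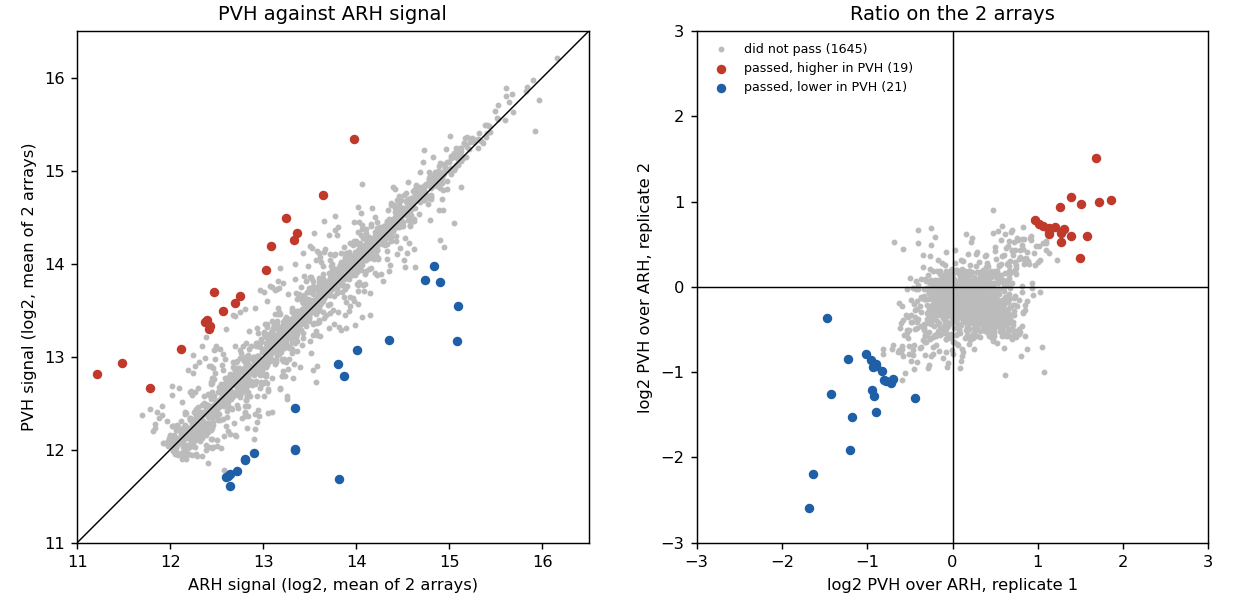
Left, mean log2 signal of PVH (vertical axis) against ARH (horizontal axis) for 1685 isolated bright fragments, with the line of equal signal. Right, log2 ratio of PVH over ARH on replicate 1 (horizontal axis) and replicate 2 (vertical axis). Red marks the 19 fragments that passed as higher in PVH, blue the 21 that passed as lower, and grey the 1645 that did not pass. Most grey points in the right panel lie right of and below the centre, at a median of 0.22 on replicate 1 and -0.18 on replicate 2.

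The fragment with the largest excess in PVH was chr6:33964954-33965368, of 415 bp and with 2 probes close in mean signal over the 4 channels (SD 0.08 on the log2 scale). Probe SDs describe this signal, and the spread of the ratio between probes was not analysed. It had a processed signal of 6041 and 8629 in PVH, against 1868 and 3003 in ARH. The nuclei did not overlap, and ARH lay under the signal minimum. PVH was 3.03-fold higher (log2 ratio 1.60 ± 0.12, SD, n = 2 arrays, limma adjusted p = 2.8e-07). The next, chr7:92571137-92571518 (382 bp, 4 probes), had 8278 and 7373 in PVH, against 2263 and 3624 in ARH. It was 2.72-fold higher in PVH, with a wide spread between arrays (log2 ratio 1.44 ± 0.60, SD, n = 2 arrays, limma adjusted p = 7.9e-06). ARH lay under the signal minimum here too.

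The next 4 fragments were bright in both nuclei. At chr19:48120598-48121124 (527 bp, 2 probes) the signal was 45513 and 37748 in PVH, against 13718 and 18836 in ARH, which is 2.57-fold higher in PVH (limma adjusted p = 3.8e-05). At chr14:62583923-62584451 (529 bp) it was 24859 and 21357 in PVH, against 8679 and 10808 in ARH, or 2.37-fold (limma adjusted p = 0.00029). At chr8:110003350-110004069 (720 bp) it was 14280 and 12376 in PVH, against 5434 and 5921 in ARH, or 2.33-fold (limma adjusted p = 0.00042). In these 3 the PVH values lay well above both ARH values, and all 4 channels were at the minimum or more. At chr6:148066499-148067207 (709 bp) PVH had 19298 and 18200, against 8019 and 9432 in ARH, or 2.15-fold (limma adjusted p = 0.0029). The probes of the last differed in mean signal, with an SD of 1.26 on the log2 scale, and those of chr19:48120598-48121124 with 1.09.

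The other fragments among the 10 largest excesses in PVH were smaller in size. At chr5:128623395-128624083 (689 bp) the signal was 34879 and 21551 in PVH, against 11583 and 14141 in ARH. It gave 2.13-fold, with log2 ratios of 1.58 and 0.60 on the 2 arrays (limma adjusted p = 0.0032). The other 3, chr7:89882553-89883254, chr2:7948543-7949110 and chr17:27688125-27688608, were 1.99-fold, 1.99-fold and 1.94-fold higher in PVH, with limma adjusted p of 0.012, 0.012 and 0.019. In these 10, chosen among fragments with 1 sign on both arrays, the ratio was larger on replicate 1, where PVH carried Cy5.

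The largest deficit in PVH was at chr5:146901979-146902712, of 734 bp and with 3 probes. It had 4498 and 2392 in PVH, against 14395 and 14376 in ARH. The ARH values were nearly equal, and both PVH values lay far below them. Averaged over the arrays, PVH was under the signal minimum, at 3280. PVH was 4.41-fold lower (log2 ratio -2.14 ± 0.64, SD, n = 2 arrays, limma adjusted p = 2.7e-13). Its probes differed strongly in mean signal, with an SD of 1.85 on the log2 scale. Next was chr10:82247968-82248592 (625 bp, 4 probes), with 11203 and 7610 in PVH, against 34673 and 34568 in ARH. It was 3.77-fold lower in PVH and bright in both nuclei (log2 ratio -1.91 ± 0.39, SD, n = 2 arrays, limma adjusted p = 1.4e-10).

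At chr14:21637448-21638024 (577 bp, 3 probes) the signal was 15524 and 9209 in PVH, against 35677 and 34585 in ARH, which is 2.95-fold lower in PVH (limma adjusted p = 6.9e-07). At chr7:84247704-84248621 (918 bp) it was 4587 and 3639 in PVH, against 10296 and 10405 in ARH, or 2.55-fold lower (limma adjusted p = 4.9e-05). Averaged over the arrays, PVH was just under the signal minimum there. One of the longest that passed, chr1:121083190-121084512 (1323 bp), had 4255 and 3995 in PVH, against 11337 and 9488 in ARH. It was 2.53-fold lower, with close ratios on the 2 arrays (log2 ratio -1.34 ± 0.12, SD, n = 2 arrays, limma adjusted p = 5.8e-05). In none of the 3 did a PVH value reach an ARH value.

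Both fragments on chromosome 4 among the 10 largest deficits stayed bright in PVH. At chr4:135925039-135925960 (922 bp) the signal was 11651 and 7367 in PVH, against 21558 and 20355 in ARH, or 2.27-fold lower (limma adjusted p = 0.00081). At chr4:138077578-138078079 (502 bp) it was 16227 and 12620 in PVH, against 30464 and 30543 in ARH, or 2.14-fold lower (limma adjusted p = 0.0030). The remaining 3 were chr11:103080602-103081164, chr12:111581767-111583182 and chr3:35553895-35554717, at 2.11-fold, 2.05-fold and 1.93-fold lower in PVH, with limma adjusted p of 0.0039, 0.0071 and 0.020. Of these, the fragment on chromosome 12 is 1416 bp long and was under the signal minimum in PVH, with 2971 and 3282, against 6941 and 5858 in ARH. The fragment on chromosome 3 (823 bp) was under the minimum in PVH as well, with 3711 and 3302, against 6456 and 7011 in ARH, and the one on chromosome 11 was above it in all channels. Among these 10, likewise chosen with 1 sign on both arrays, the ratio was further below 0 on replicate 2, where ARH carried Cy5, except in the fragments on chromosomes 1 and 12.

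**Figure D5:**
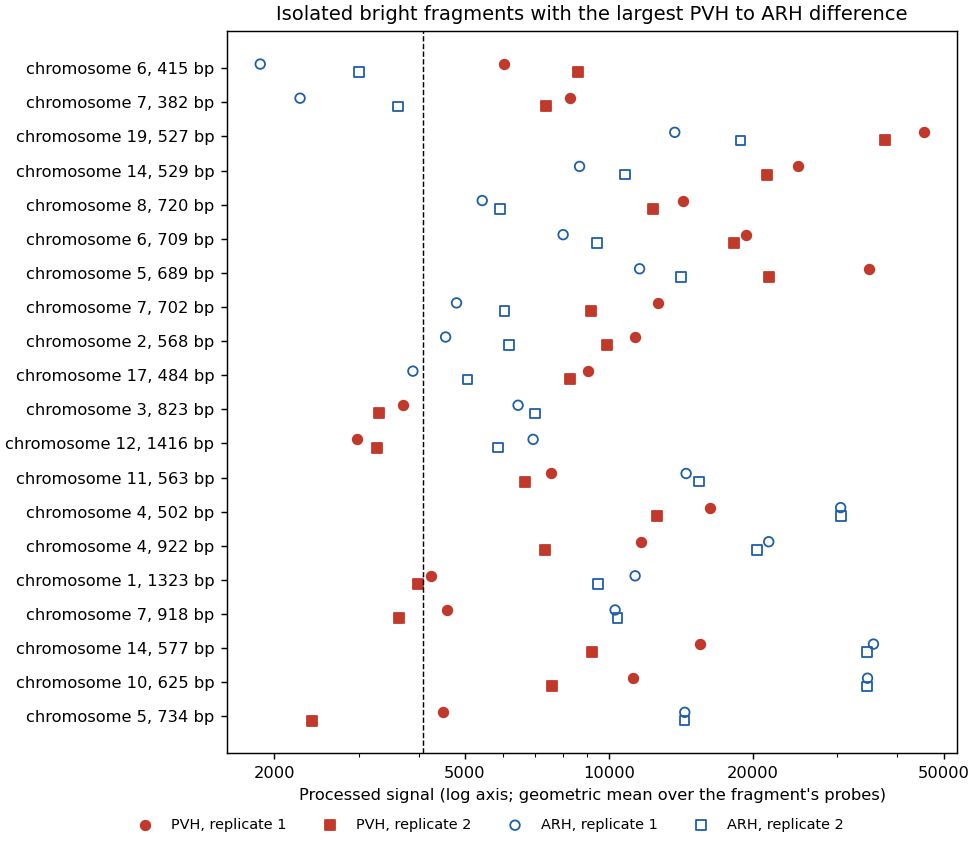
Processed signal (horizontal log axis) of the 10 isolated bright fragments with the largest excess (upper rows) and the 10 with the largest deficit in PVH (lower rows), named by chromosome and length. Red filled symbols are PVH and blue open symbols ARH, circles replicate 1 and squares replicate 2, and the dashed line is the signal minimum. In every row both PVH values lie on one side of both ARH values.

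Besides these 20, a very short fragment passed as lower in PVH: chr3:87941221-87941443, of 223 bp, with 3400 and 4228 in PVH, against 9374 and 5428 in ARH. Its log2 ratios of -1.47 and -0.37 differed widely between the arrays (limma adjusted p = 0.029). It was named for its length and not for its ratio.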

How the data were processed

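DNA of PVH and ARH pools was measured on 2 two-colour Agilent arrays. Per the file headers, the deposited processed intensity was background-subtracted and dye-normalized by 1 linear factor per channel in Feature Extraction 10.5.1.1 (the submitters' processing notes name 9.1.3.1), on array design 017202 with mm8 positions. The deposited table of log2 values listed the fragments. For isolated bright fragments its columns followed the log2 ratios computed here (r = 0.99 on replicate 1 and 0.9997 on replicate 2, with slopes of 1.01 and 0.998), which settled scale and direction. Its column medians were 0.046 and 0.018, and its centring stays unknown.

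Log2 processed intensities of probes inside a fragment were averaged. For ratios, control spots, 79 outlier spots and probes that on an array stood well above background in neither channel were left out, 84715 probes were centred on their median on each array, and replicate 2 was turned for its dyes. Tests ran over the 22350 fragments holding 2 or more such probes, in limma 3.58.1 under R 4.3.3 (lmFit, eBayes, Benjamini-Hochberg at 0.05). The number of arrays limits the precision. No spot was saturated. The labels call the arrays biological replicates. Named fragments were the brightest 10, the 10 largest mean ratios per direction among those passing with 1 sign on both arrays, 3 on each side of the signal minimum, and extremes of length, distance and probe spread. The fragments and these choices were made with earlier results of these data known. Alternatives varied normalization, filters, the signal minimum, the isolation distance and the array or nucleus used for brightness. Gene positions were not analysed here, since the gene table at hand is for another build.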

Additional observations from a re-analysis of the deposited data

How the results depend on the processing

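Counts of fragments passing PVH against ARH moved with loess on background-corrected spot medians and with the length trend. With normexp on median spot signals and loess (chosen after seeing the data, as the files hold median and no mean signals, so the planned mean-signal settings were not run), 97 isolated bright fragments and 676 of all fragments passed. Without loess (also added later) these were 4 and 37, with the length trend removed 6 and 82, and with the array signs left unturned 0 and 2, where both arrays are read by dye and not by nucleus. The 40 of the report all passed with loess on normexp, and the 4 and the 6 were among the 40. The share of passing isolated bright fragments lower in PVH was 52.5% as reported, 43.3% (55 higher, 42 lower) with normexp and loess, 47.7% in the deposited table, 75% under normexp alone and 83.3% after taking out the length trend. Isolation by 50000 bp left 838 fragments with 18 passing (13 higher, 5 lower). The bright share of isolated fragments was 29.0% with the signal minimum 0.5 lower, 20.8% with it 0.5 higher, 26.2% with isolation by 10000 bp, 22.1% by 50000 bp, and 20.9% on raw median spot signals (added later). Under the other settings between 29 and 55 isolated bright fragments passed. The median log2 ratio was between -0.18 without replicate 1 and 0.22 without replicate 2; counts without a replicate have no residual degrees of freedom. Of 238 single values of named fragments under alternatives, 208 kept their direction and call and 0 reversed; the 30 lost calls were 16 of 20 under normexp without loess and 14 of 20 with the length trend removed. No paired analysis was possible because, beyond the reported fit, which itself pairs PVH and ARH on each array, a replicate block leaves no residual degrees of freedom.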

Other observations

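Of the 20 isolated bright fragments named for their ratio, 19 had a nearest listed fragment with a tested ratio, between 22384 and 409562 bp away. It had the same sign as the named fragment in 12 cases and the opposite sign in 7. The largest in size, at -1.02, lay 34149 bp from chr4:135925039-135925960, whose own log2 ratio of PVH over ARH was -1.18. The other 18 nearest fragments lay between -0.52 and 0.32, and the one singled out was picked after its value was seen.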
